A study of Mus musculus with 32 samples.

Results

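KCl depolarization changed the RNA content of wild-type (WT) neurites mainly upwards. Within 2 h, 572 of 22059 genes tested were at least 2-fold higher in KCl-treated neurites and 279 were at least 2-fold lower. Among protein-coding genes averaging 100 counts or more, the rise was led by the activity-regulated transcription factors Fosb, Npas4, Nr4a1, Nr4a2 and Fos and by Arc, and the fall by Hes5, a transcription factor downstream of Notch. The comparison set 2 neurite libraries of KCl-treated neurons (WT_Neurite_KCl) against 2 neurite libraries of untreated neurons (WT_Neurite_Ctrl), 4 of the 16 RNA-seq libraries of the series. A gene was tested where these 4 libraries averaged at least 10 counts, which kept 22059 of the 55573 genes in the count table. Of the 33514 genes not tested, 12043 had no count in any of the 4 libraries.

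All 4 libraries came from hippocampal neurons of newborn C57BL/6 mice, grown to day 15 on a porous membrane through which neurites extend. Soma were scraped from the upper side and neurites from the lower side. Both groups carried the same treatments before KCl. An AAV drove Cre and dTomato from the neuronal hSyn promoter. Neurons were silenced for 16 h with 1 µM tetrodotoxin (TTX), which blocks voltage-gated sodium channels, and 50 µM D-AP5, an NMDA receptor antagonist. WT neurons have no floxed allele, so Cre had no engineered target in them. The KCl group then received 55 mM KCl for 2 h, and the Ctrl group was left untreated. Per the methods, KCl was given as a solution that also held HEPES, magnesium chloride and calcium chloride. Adding it also diluted the medium, and the comparison cannot separate KCl from these other differences. Per the methods of the study, each culture pooled all pups of a litter, replicates were from distinct litters, a litter gave both its Ctrl and its KCl neurons, and cytosine arabinoside was added to limit glia. The labels do not say whether a replicate number marks a litter, so the 4 libraries were tested without pairing, and the fit with the numbers as a block is given as an alternative. With this silencing, Ctrl means silenced neurons, not neurons at resting activity.

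Raised external potassium depolarizes neurons, opens voltage-gated calcium channels and so starts a programme of immediate early genes, which are transcribed from factors already in the cell. Many of these genes encode transcription factors, and others encode feedback inhibitors of kinase signalling or proteins secreted or used at synapses. Arc mRNA is the best known of them in neurites, since it is carried into dendrites after activity. RNA reaches neurites by transport from the soma, so a level there 2 h after KCl can reflect synthesis, transport or decay, and these measurements do not separate them.

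The Ctrl neurite libraries held 57046498 and 38093506 counts and the KCl neurite libraries 47496542 and 55747797. Protein-coding genes took 82.7% to 85.7% of these counts. The SD over genes of the log2 ratio between replicates was 0.611 in Ctrl and 0.471 in KCl, and edgeR's common biological coefficient of variation was 0.154. The median log2 change over all genes tested was −0.02. All 37 mitochondrially encoded genes were listed at 0 in every library. Levels below are CPM, counts per 1000000 counts of a library after TMM scaling, given for replicate 1 and then replicate 2. A log2 change is KCl over Ctrl with its standard error (SE, n = 2 libraries per group). The SE is the size of the log2 change divided by the square root of edgeR's quasi-likelihood F value. That test shares information on spread across genes, so the SE is not the spread of a gene's own replicates. A gene was called higher or lower at an adjusted p of at most 0.05 in edgeR's quasi-likelihood test and a change of at least 2-fold. Since these are PCR reads without molecular identifiers, the precision that counts alone imply covers counting error only. In bulk RNA, a change in the number of neurites of one cell type and a change in RNA per neurite cannot be told apart.

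Of all genes tested, 2.59% were called higher and 1.26% lower. At the adjusted p alone, with no threshold on the fold, 1009 genes (4.57%) were higher and 641 (2.91%) lower. Among the genes called higher, 276 rose at least 4-fold and 63 at least 16-fold, while 61 of the genes called lower fell at least 4-fold and 5 at least 16-fold. The median log2 change was 1.97 for genes called higher and −1.40 for genes called lower. In all 572 and all 279, both KCl libraries lay on the same side of both Ctrl libraries. As the calls were made from these same 4 libraries, this is not separate evidence for them. Over all genes tested, 26.5% had both KCl libraries above both Ctrl libraries and 27% had both below. Near the limit of the filter, 4 of the 361 genes with a mean count of 10 to 11 were called, and the 450 genes with a mean count of 9 to 10 were not tested.

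The fall depended more on single libraries than the rise. Without KCl replicate 2, edgeR called 338 genes higher and 60 lower, and without Ctrl replicate 1 it called 974 and 458. With all 16 RNA-seq libraries of the series in 1 fit, which adds the soma and the Mettl3 KO libraries to the estimate of spread, 240 were called higher and 23 lower. KCl replicate 2 was also above KCl replicate 1 in 438 of the 572 genes called higher (76.6%), against 50.1% of all genes tested, and what part this had in the counts was not tested.

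**Figure D1:**
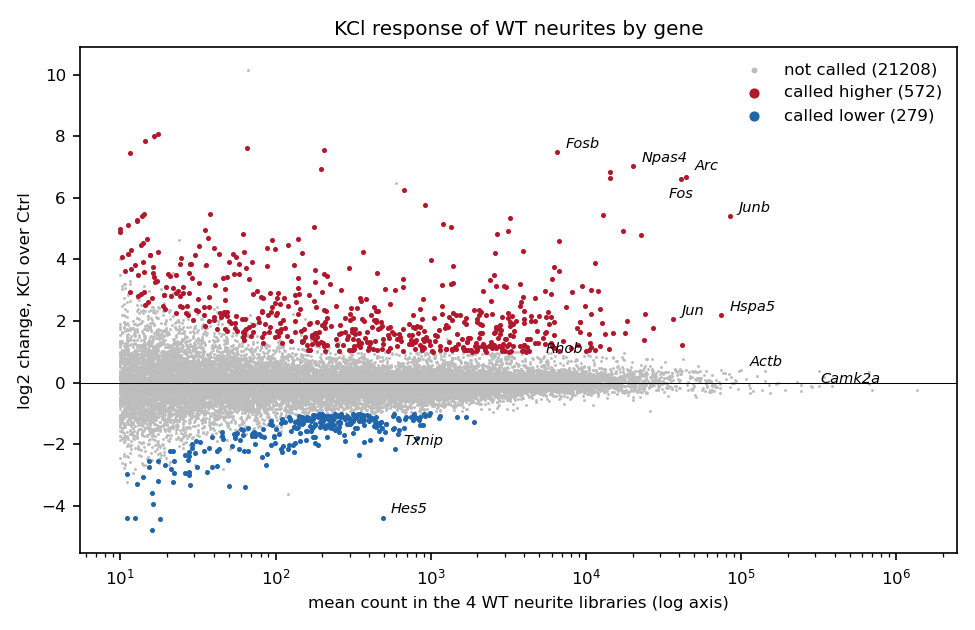
Each point is a gene tested in WT neurites, with its mean count in the 4 libraries on a log axis and its log2 change (KCl over Ctrl) on the vertical axis. The 572 genes called higher reach far above the 279 called lower, and Fosb, Npas4, Arc and Fos combine a large change with a high count, while Actb and Camk2a lie near 0.

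Transcription factors of the activity programme had the largest median change of the lists examined. Of 23 listed and tested, 21 were called higher and 0 lower, against 2.59% and 1.26% of all genes, and the median log2 change was 4.61, against −0.02 over all genes. Fos, a partner in the AP-1 dimer, stood at 17.8 and 15.2 CPM in Ctrl and 1508 and 1701 in KCl. Both KCl libraries were far above both Ctrl libraries, a 97-fold rise with a log2 change of 6.60 ± 0.14 (edgeR adjusted p = 1.82e-07). Fosb, its close relative, had the largest change of these factors, from 1.45 and 1.42 CPM to 253 and 261, a log2 change of 7.48 ± 0.12 (edgeR adjusted p = 5.67e-08). Npas4, a factor found mainly in neurons and induced by calcium entry, was at 6.19 and 5.78 CPM in Ctrl and 693 and 878 in KCl (log2 change 7.03 ± 0.16). In each of these genes the gap between the groups exceeded the gap between replicates many times over.

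The orphan nuclear receptors of the Nr4a family rose as well. Nr4a1 was at 4.57 and 5.14 CPM in Ctrl and 495 and 616 in KCl (log2 change 6.84 ± 0.16), and Nr4a2 at 5.02 and 6.07 CPM in Ctrl and 481 and 630.0 in KCl (6.66 ± 0.18). Nr4a3 changed less, with 12.5 and 16.9 CPM in Ctrl and 132 and 138 in KCl (3.21 ± 0.15). Among the Egr zinc-finger factors, Egr1 was at 30.7 and 30.6 CPM in Ctrl and 786 and 931 in KCl (4.81 ± 0.12). The log2 changes of the others were 4.91 for Egr2, 4.61 for Egr4 and 2.01 for Egr3.

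Junb, which pairs with Fos proteins, was already present in silenced neurites at 80.4 and 73.3 CPM and reached 3221 and 3366 after KCl (log2 change 5.42 ± 0.12, edgeR adjusted p = 1.82e-07). Jun started higher and rose less, from 278 and 278 CPM to 1125 and 1205 (log2 change 2.07 ± 0.10). Atf3, a stress-inducible factor, was at 2.94 and 3.11 CPM in Ctrl and 99.9 and 146 in KCl, with KCl replicate 2 the higher library (log2 change 5.35 ± 0.21). Maff (5.15), Klf4 (5.05), Fosl1 (3.80), Ier2 (3.61), Fosl2 (2.75) and Jund (1.70) were also called higher on this log2 scale. Per kilobase of exon, the mean level in KCl neurites was 1431 CPM for Junb, 682 for Fos, 365 for Jun and 189.9 for Npas4.

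The smallest called rises of the list were those of Crem, a regulator of cAMP-responsive genes, and Ier5, each with a log2 change of 1.28. Both calls were lost without KCl replicate 2, where Crem had a log2 change of just under 1.00 and Ier5 an adjusted p of 0.0883. Myc and Klf10 were the members not called. Myc was at 7.97 and 6.59 CPM in Ctrl and 6.31 and 6.68 in KCl, so the groups overlapped (log2 change −0.17 ± 0.19). Klf10 was at 37.5 and 44.7 CPM in Ctrl and 30 and 30.3 in KCl, both KCl libraries below both Ctrl libraries, with an edgeR adjusted p of 0.0574. In the fit of all 16 libraries, Jun, Jund, Egr3, Egr4, Ier5 and Crem were no longer called.

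Promoter windows show what sequence these genes share near their starts. The cAMP response element (CRE), TGACGTCA, binds CREB, a factor phosphorylated when calcium enters, and its half-site TGACG lies within it. RefSeq promoters on GRCm38.p6, 250 bases before to 50 bases after a start, matched 325 of the 417 protein-coding symbols called higher and 175 of the 212 called lower. A gene counted as holding a motif where any of its windows held it on either strand. The half-site was in 57.5% of matched genes called higher, in 28.0% of those called lower and in 33.0% of the 11847 matched protein-coding genes tested. The whole CRE was in 12.3% (40 genes), 2.29% (4) and 3.33% (395). Of the listed transcription factors, 12 of the 16 with a window held the half-site. The windows of Fos, Npas4, Fosb and Nr4a1 are given because these genes had some of the largest changes, 5′ to 3′ on the strand of the gene, with half-sites on either strand in capitals.

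Fos, chr12:85473640-85473939, plus strand: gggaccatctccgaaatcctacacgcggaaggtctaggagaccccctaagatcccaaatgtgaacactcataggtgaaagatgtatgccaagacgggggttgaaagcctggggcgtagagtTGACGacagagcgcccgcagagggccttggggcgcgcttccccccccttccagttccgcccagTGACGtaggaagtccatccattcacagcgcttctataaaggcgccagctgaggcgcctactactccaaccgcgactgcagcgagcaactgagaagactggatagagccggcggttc

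Npas4, chr19:4989922-4990221, minus strand: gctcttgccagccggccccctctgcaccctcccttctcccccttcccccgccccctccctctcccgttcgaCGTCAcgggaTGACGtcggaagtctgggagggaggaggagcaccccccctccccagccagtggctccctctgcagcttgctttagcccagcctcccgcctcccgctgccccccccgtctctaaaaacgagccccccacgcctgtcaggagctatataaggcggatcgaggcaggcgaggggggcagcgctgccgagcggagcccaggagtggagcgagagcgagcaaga

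Fosb, chr7:19309996-19310295, minus strand: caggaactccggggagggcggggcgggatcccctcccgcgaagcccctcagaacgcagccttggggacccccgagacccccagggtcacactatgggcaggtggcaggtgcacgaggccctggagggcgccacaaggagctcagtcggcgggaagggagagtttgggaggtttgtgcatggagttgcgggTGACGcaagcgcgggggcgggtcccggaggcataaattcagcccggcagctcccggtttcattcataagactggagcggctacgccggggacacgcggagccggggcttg

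Nr4a1, chr15:101266596-101266895, plus strand: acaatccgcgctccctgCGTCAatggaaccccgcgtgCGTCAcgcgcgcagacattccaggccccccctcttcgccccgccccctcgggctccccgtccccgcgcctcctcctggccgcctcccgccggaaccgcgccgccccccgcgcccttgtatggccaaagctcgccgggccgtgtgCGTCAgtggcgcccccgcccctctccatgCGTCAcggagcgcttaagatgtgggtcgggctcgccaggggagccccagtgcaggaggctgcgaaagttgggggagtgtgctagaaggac

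Counted from the first base of the half-site to the start, the sites lay 129 and 66 bases before the start of Fos, 179 and 169 before Npas4, 60 before Fosb, and 233, 213, 69 and 40 before this start of Nr4a1. Fosb, with 1 half-site, had a larger log2 change (7.48) than Nr4a1 with 4 (6.84). Matched windows of Ier5, Jun, Jund and Fosl2 held no half-site, and all of these genes were called higher. The other motifs searched were in fewer of the matched genes called higher. The AP-1 motif TGANTCA was in 8.62% of matched genes called higher, 5.71% of those called lower and 6.43% of all, and the Egr motif GCGGGGGCG in 8.31%, 4.0% and 6.20%. The CArG box bound by serum response factor was in 3.38%, 1.71% and 1.60%. These are matches of letters in short windows and do not show binding.

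Feedback and signalling genes of the same programme came next. Of 20 tested, 17 were called higher and 0 lower, against 2.59% and 1.26% of all genes, with a median log2 change of 2.17. Dusp1, a phosphatase that switches off MAP kinases, was at 14.3 and 8.36 CPM in Ctrl and 456 and 537 in KCl. The Ctrl replicates differed from each other, yet both lay far below KCl (log2 change 5.43 ± 0.24, edgeR adjusted p = 5.65e-06). Gadd45g, a stress-response gene of the Gadd45 family, had closer replicates, 21.5 and 23.1 CPM in Ctrl and 663 and 676 in KCl (4.91 ± 0.11, edgeR adjusted p = 1.82e-07). Gadd45b rose less (2.35 ± 0.17), and Gadd45a was at 2.25 and 1.85 CPM in Ctrl and 1.58 and 2.04 in KCl, with overlapping groups. Gadd45a was thus the member of its family that was not called.

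Btg2, an antiproliferative regulator of mRNA decay, rose from 29.9 and 28 CPM to 443 and 407 (log2 change 3.87 ± 0.10). Plk2, a polo-like kinase that acts at synapses, was at 169.6 and 167 CPM in Ctrl and 697 and 875 in KCl (2.22 ± 0.12). Rgs2, which shortens G protein signalling, was at 4.49 and 6.15 CPM in Ctrl and 47.5 and 49.5 in KCl (3.20 ± 0.16). Among the MAP kinase phosphatases, Dusp5 (2.24) and Dusp4 (2.19) had log2 changes well below that of Dusp1. Pim1, a kinase, and Trib1, a pseudokinase, had log2 changes of 4.25 and 3.78, and in both KCl replicate 2 stood well above KCl replicate 1 (9.27 and 17.8 CPM for Pim1, 38.2 and 62.5 for Trib1). Errfi1 (2.15), Gadd45b (2.35), Sik1 (1.74), Spry2 (1.52), Sgk1 (1.28) and Plk3 (1.20) were also called, and these 6 kept their calls with each of the 4 libraries left out in turn.

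Calls of Dusp6 and Gem rested on single libraries. Dusp6 was at 13.7 and 7.65 CPM in Ctrl and 21.9 and 25.5 in KCl, and its log2 change of 1.14 became 0.79 without Ctrl replicate 2, while its adjusted p became 0.154 without KCl replicate 2. Gem, a small GTPase that restrains calcium channels, was at 1.25 and 0.844 CPM in Ctrl and 4.0 and 4.49 in KCl (2.00 ± 0.30), with an adjusted p of 0.0642 without KCl replicate 2. Spry4 (0.81) and Dusp14 (0.70) had adjusted p of 0.00573 and 0.0279 in edgeR's test but changed less than 2-fold. In the fit of all 16 libraries, 7 of these 20 genes were called higher.

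Whole CREs were found in windows of 4 of the 15 signalling genes with a window, and 3 of them are given because they show the palindrome in capitals at different distances from the start.

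Dusp1, chr17:26508423-26508722, minus strand: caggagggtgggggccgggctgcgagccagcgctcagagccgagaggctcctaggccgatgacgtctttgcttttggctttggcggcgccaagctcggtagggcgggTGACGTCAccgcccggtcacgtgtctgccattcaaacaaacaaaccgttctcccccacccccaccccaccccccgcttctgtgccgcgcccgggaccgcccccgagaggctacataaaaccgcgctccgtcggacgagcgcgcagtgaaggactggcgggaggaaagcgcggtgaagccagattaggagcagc

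Btg2, chr1:134079106-134079405, minus strand: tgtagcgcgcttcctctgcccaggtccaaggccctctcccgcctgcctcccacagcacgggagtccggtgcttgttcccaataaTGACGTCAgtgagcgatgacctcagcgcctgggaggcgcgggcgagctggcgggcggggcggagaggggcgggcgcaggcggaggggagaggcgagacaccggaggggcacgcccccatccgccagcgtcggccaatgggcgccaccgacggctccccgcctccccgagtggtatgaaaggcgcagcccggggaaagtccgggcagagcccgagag

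Plk2, chr13:110394794-110395093, plus strand: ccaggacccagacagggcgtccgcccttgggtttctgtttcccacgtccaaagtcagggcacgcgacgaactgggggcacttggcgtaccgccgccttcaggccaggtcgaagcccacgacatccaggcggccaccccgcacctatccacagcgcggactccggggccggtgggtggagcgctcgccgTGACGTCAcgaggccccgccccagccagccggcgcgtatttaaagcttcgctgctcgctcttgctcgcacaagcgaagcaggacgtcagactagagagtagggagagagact

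The CRE began 143 bases before the start of Dusp1, 166 before that of Btg2 and 62 before that of Plk2. The remaining holders among the activity lists were Errfi1, Maff, Pcsk1 and Scg2. Their log2 changes ran from 1.03 for Scg2 to 5.15 for Maff, and that of Dusp1 was 5.43.

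Of 18 secreted and synaptic genes of the programme, 12 were called higher and 0 lower, against 2.59% and 1.26% of all genes. The median log2 change was 1.64. Arc, which encodes a regulator of AMPA receptor endocytosis, was at 15.6 and 17.6 CPM in Ctrl and 1329 and 2098 in KCl. The groups were far apart, but KCl replicate 2 stood well above KCl replicate 1, and the log2 change was 6.69 ± 0.24 (edgeR adjusted p = 2.04e-06). Bdnf, a secreted neurotrophin, rose from 10.2 and 10.8 CPM to 78.8 and 107 (3.15 ± 0.16, edgeR adjusted p = 1.12e-05). Per kilobase of exon, the mean level in KCl neurites was 561 CPM for Arc and 15 for Bdnf.

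Pcsk1, a protease that matures peptide hormones, was at 4.97 and 5.36 CPM in Ctrl and 76.3 and 115 in KCl (4.22 ± 0.21). Vgf, the precursor of secreted neuropeptides, was at 49 and 42 CPM in Ctrl and 243 and 259.7 in KCl (2.46 ± 0.11). Homer1, a scaffold of metabotropic glutamate receptors with a short activity-induced isoform, was at 21.2 and 20.4 CPM in Ctrl and 74 and 109.6 in KCl (2.14 ± 0.17), and gene-level counts do not separate its isoforms. Ptgs2, the inducible cyclooxygenase, was low in both groups, 0.450 and 0.185 CPM in Ctrl and 3.89 and 5.68 in KCl, with a log2 change of 3.83 ± 0.43. Amigo3 (2.64), Plat (2.00), Nptx2 (1.66) and Grasp (1.62) were called higher too.

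Nrn1 and Scg2 were near the threshold. Nrn1 was at 27.5 and 32.4 CPM in Ctrl and 57.3 and 77.6 in KCl (1.18 ± 0.16), and without KCl replicate 2 its log2 change was 0.94. Scg2, a granin of dense-core vesicles, was at 140.2 and 119.8 CPM in Ctrl and 238 and 292 in KCl (1.03 ± 0.13), with 0.87 without KCl replicate 2 and 0.92 without Ctrl replicate 2. Inhba, an activin subunit, was not called: its Ctrl libraries stood at 1.10 and 3.46 CPM and its KCl libraries at 3.37 and 6.80, so the groups overlapped, and without Ctrl replicate 2 its log2 change of 1.20 became 2.21 and passed the test (adjusted p = 0.00304). Adcyap1 (1.01), Rasgrp1 (0.70), Nptx1 (0.14) and Lingo1 (0.04) did not pass with all 4 libraries, with Nptx1 at 189 and 189.8 CPM in Ctrl and 214 and 204 in KCl, and Adcyap1 passed without Ctrl replicate 1. In the fit of all 16 libraries, 6 of the 18 were called higher.

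**Figure D2:**
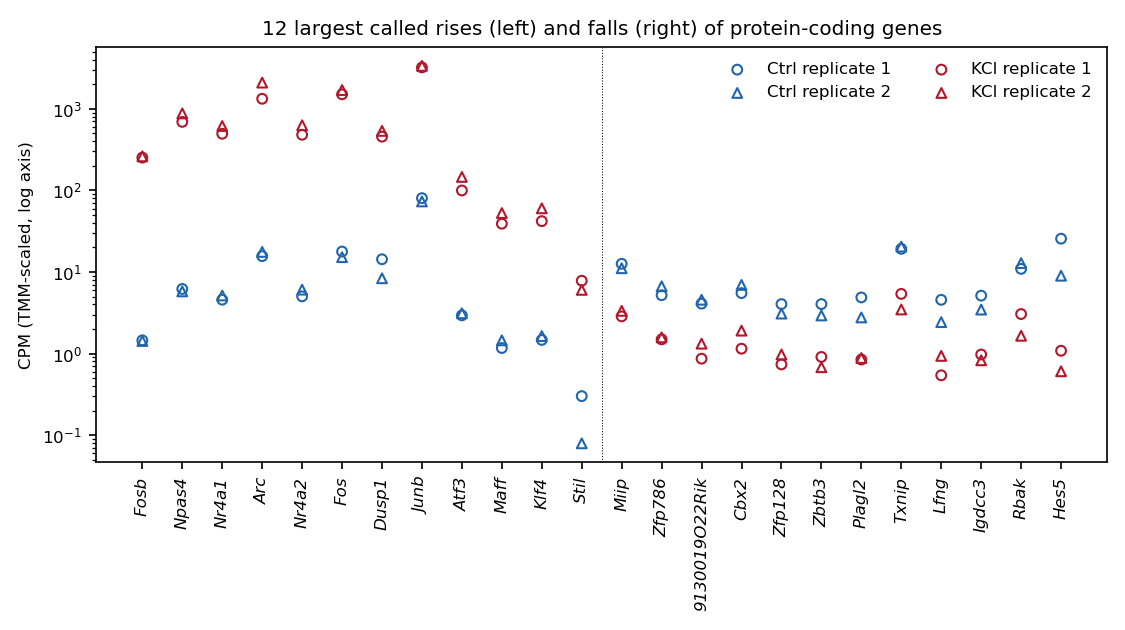
CPM on a log axis in each of the 4 WT neurite libraries for the 12 protein-coding genes with the largest called rises and the 12 with the largest called falls, drawn from genes that averaged 100 counts or more. Circles are replicate 1 and triangles replicate 2, blue Ctrl and red KCl. In every gene shown both KCl libraries lie on the same side of both Ctrl libraries, which the choice of genes required.

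Stil was the only protein-coding gene among the 12 largest rises that belongs to none of the activity lists. It encodes a protein needed to build centrioles, and was at 0.30 and 0.0791 CPM in Ctrl and 7.80 and 6.03 in KCl (log2 change 5.04 ± 0.44, edgeR adjusted p = 2.92e-04). Its Ctrl level was close to 0 in both libraries, and both KCl libraries were clearly above it.

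Genes of cholesterol synthesis and uptake moved in the same direction. All 19 listed genes had a log2 change above 0, and the median was 0.75. Of the 19, 7 were called higher and 0 lower, against 2.59% and 1.26% of all genes. At the adjusted p alone 13 passed, all higher, against 4.57% of all genes. Idi1, which isomerizes the isoprene unit, rose from 35.2 and 41.9 CPM in Ctrl to 181 and 197 in KCl. Replicates were close within each group, and the log2 change was 2.29 ± 0.11 (edgeR adjusted p = 1.04e-05). Insig1, a sterol-sensing inhibitor of the pathway, rose from 37.2 and 35.1 CPM to 162 and 165 (2.18 ± 0.09). An enzyme and an inhibitor of the pathway thus rose side by side.

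Cyp51 (1.98) and Msmo1 (1.63), enzymes of the sterol branch, were also called on the log2 scale. Stard4, a sterol carrier, sat at the threshold, with a log2 change of 1.00 that fell just below 1 without Ctrl replicate 1 (0.96) and without KCl replicate 1 (0.96). Sqle (0.95) and Hmgcs1 (0.75) passed the test but changed less than 2-fold, and Sqle reached 2-fold without KCl replicate 1. Srebf2, the transcription factor that controls these genes, was at 199 and 204 CPM in Ctrl and 241 and 207 in KCl, a log2 change of 0.15 ± 0.10 with an edgeR adjusted p of 0.425. In the fit of all 16 libraries, 3 of the 19 were called.

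Of 16 ATF4 targets and endoplasmic reticulum chaperones, 3 were called higher and 0 lower, against 2.59% and 1.26% of all genes. Hspa5, the main chaperone of the endoplasmic reticulum, was at 548 and 513 CPM in Ctrl and 2295 and 2568 in KCl (log2 change 2.20 ± 0.11, edgeR adjusted p = 1.04e-05). Herpud1, a part of the degradation machinery of that organelle, was at 82.6 and 73.7 CPM in Ctrl and 385 and 437 in KCl (2.40 ± 0.11), and Atf4 itself, a stress-response factor, at 22.3 and 20.4 CPM in Ctrl and 128 and 133 in KCl (2.61 ± 0.10). Sesn2, which responds to stress and restrains mTORC1, passed the adjusted p (0.00576) at less than 2-fold (0.67). The others did not pass, with log2 changes from −0.77 for Trib3 to 0.78 for Chac1, and Ddit3 (CHOP) at 0.13 ± 0.13, Asns at 0.18 ± 0.09 and Xbp1 at 0.12 ± 0.09 between them. The median of all 16 was 0.19, and in 11 of them both KCl libraries lay above both Ctrl libraries, against 26.5% of all genes.

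Hspa5 was the only called gene with a window holding the endoplasmic reticulum stress element (CCAAT, then 9 bases, then CCACG), which 0.177% of matched genes tested held. Its window is given with the element in capitals, which began 65 bases before the start.

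Hspa5, chr2:34771840-34772139, plus strand: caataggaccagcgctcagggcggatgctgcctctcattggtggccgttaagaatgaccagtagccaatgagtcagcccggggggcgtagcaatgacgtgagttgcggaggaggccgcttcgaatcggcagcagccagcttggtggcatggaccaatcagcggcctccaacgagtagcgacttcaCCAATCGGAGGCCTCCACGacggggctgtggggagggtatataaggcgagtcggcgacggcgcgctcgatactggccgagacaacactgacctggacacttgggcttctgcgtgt

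Heat shock proteins gave 4 calls of 12, all higher, against 2.59% of all genes, with a median log2 change of 0.36. Dnajb1, a co-chaperone of Hsp70, was at 62.9 and 63.2 CPM in Ctrl and 142 and 224 in KCl (1.54 ± 0.19). The inducible Hsp70 genes Hspa1a and Hspa1b had nearly equal changes (1.32 and 1.30), but they are near-identical copies and reads mapping to several places were counted, so their values are not independent. Bag3, an Hsp70 co-chaperone, was at 2.75 and 1.82 CPM in Ctrl and 4.97 and 6.27 in KCl (1.28 ± 0.28), and without KCl replicate 2 its adjusted p was 0.272. None of these 4 was called in the fit of all 16 libraries.

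Of 15 circadian clock genes, 3 were called higher and 1 lower, against 2.59% and 1.26% of all genes, with a median of −0.09. Per1, a clock repressor that also responds to CREB, was at 18.9 and 15.5 CPM in Ctrl and 87.9 and 75.6 in KCl (2.24 ± 0.13), Per2 had a log2 change of 1.31 ± 0.11, and Cry2, a further repressor, 1.08 ± 0.10. The call of Cry2 was lost without KCl replicate 2, where its log2 change was 0.99. Bhlhe40, a repressor of clock output, fell from 22.4 and 23.4 CPM to 10.5 and 10.1 (−1.15 ± 0.13). Dbp, an output factor of the clock, was at 23.3 and 24.7 CPM in Ctrl and 13.3 and 12.4 in KCl, which passed edgeR's adjusted p (0.00428) at less than 2-fold.

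Of 20 genes of glycolysis and glucose uptake, 2 were called higher and 0 lower, against 2.59% and 1.26% of all genes. Both encode glucose transporters. Slc2a1, the transporter best known from vessels and glia, was at 28.5 and 23.6 CPM in Ctrl and 96.6 and 107 in KCl (1.96 ± 0.12), and Slc2a3, the main neuronal glucose transporter, at 235 and 249 CPM in Ctrl and 733 and 924 in KCl (1.77 ± 0.13). The other 18 had log2 changes from −0.11 to 0.29, and 0 of them passed the adjusted p. Slc2a3 was not called in the fit of all 16 libraries.

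Among genes called lower, Hes5 had the largest change of any that averaged 100 counts or more. Hes5, a repressor induced by Notch in neural progenitors and glia, was at 25.6 and 9.0 CPM in Ctrl and 1.08 and 0.605 in KCl. Its Ctrl libraries differed from each other by more than 2-fold, yet the lower of them was far above both KCl libraries, and the log2 change was −4.38 ± 0.52 (edgeR adjusted p = 0.00168). It was the only gene called among 11 Notch targets and Id repressors, where 1.26% of all genes were called lower and 2.59% higher. The list had a median log2 change of −0.53. Hes1, another Notch target, was at 3.94 and 1.98 CPM in Ctrl and 0.843 and 1.17 in KCl, with a log2 change of −1.56 ± 0.40 and an adjusted p of 0.0534 in edgeR and 0.0109 in DESeq2. Without Ctrl replicate 1 and without Ctrl replicate 2, 3 genes of this list were called lower each time. Id2 went the other way, from 45.6 and 45.9 CPM to 79.8 and 82.7, and passed the adjusted p (9.60e-04) at less than 2-fold.

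Lfng and Dll1 are outside that list. Lfng, a glycosyltransferase that modifies Notch receptors, was at 4.55 and 2.43 CPM in Ctrl and 0.540 and 0.935 in KCl (log2 change −2.24 ± 0.42, edgeR adjusted p = 0.0158), and without KCl replicate 1 its adjusted p was 0.0673. Dll1, a Notch ligand chosen after its values were seen, was at 8.91 and 5.72 CPM in Ctrl and 3.03 and 2.24 in KCl (−1.48 ± 0.28), with an adjusted p of 0.148 without KCl replicate 2. As Hes5 and Sox9 also mark astroglia, the astrocyte list is given with these values. Its 11 genes summed to 2896 and 1855 CPM in Ctrl neurites and 2181 and 2596 in KCl neurites. In soma they summed to 1210 and 1234 CPM in Ctrl and 1601 and 1672 in KCl. The neurite fraction thus held astrocyte marker RNA as well, and its share was not tested. In neurites 0 of 11 were called, against 2.59% and 1.26% of all genes called higher and lower. Of the 11, 8 had a log2 change below 0 and 3 above, with a median of −0.06. Sox9 was at 125 and 71.9 CPM in Ctrl neurites and 152 and 204 in KCl neurites. Its difference in log2 change, neurites minus soma, was −1.08 ± 0.26 in edgeR (adjusted p = 0.999) and −1.145 in DESeq2 (adjusted p = 0.0497). Sox9 was called higher without Ctrl replicate 1 or without KCl replicate 1. Its part in the fall of Hes5 was not tested.

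Txnip, which restrains glucose uptake and binds thioredoxin, fell from 19.2 and 20.5 CPM to 5.38 and 3.47 (log2 change −2.17 ± 0.22, edgeR adjusted p = 6.36e-04). Igdcc3, a cell-surface protein with immunoglobulin domains, fell from 5.12 and 3.46 CPM to 0.973 and 0.825 (−2.26 ± 0.32). Cbx2, a Polycomb subunit, fell from 5.51 and 6.94 CPM to 1.15 and 1.91 (−2.01 ± 0.30), and Miip from 12.6 and 11.1 CPM to 2.85 and 3.34 (−1.94 ± 0.19). Replicates agreed within a group better for Miip than for Igdcc3.

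The other genes of the 12 largest falls were Rbak, Plagl2, Zbtb3, Zfp128, 9130019O22Rik and Zfp786, and all of them but 9130019O22Rik are known as genes of zinc-finger proteins. Rbak fell from 10.9 and 12.8 CPM to 3.05 and 1.65 (−2.34 ± 0.29). Plagl2 (−2.15), Zbtb3 (−2.14), Zfp128 (−2.06), 9130019O22Rik (−1.97) and Zfp786 (−1.94) had log2 changes close to 2 units below 0. Without KCl replicate 2, the adjusted p of Plagl2 was 0.0687 and that of Zbtb3 0.0793. The smallest p among falls belonged to 1700017B05Rik, with 26.6 and 24.9 CPM in Ctrl and 7.54 and 7.17 in KCl (−1.81 ± 0.14, edgeR adjusted p = 1.22e-04), to Ccdc71 (−1.12 ± 0.11) and to Lrrtm4, a postsynaptic adhesion protein, with 24.4 and 25.8 CPM in Ctrl and 9.88 and 9.65 in KCl (−1.36 ± 0.13).

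Since m6A, methylation of adenosine in RNA, is the subject of the series, its machinery was read as a list of 15 genes. Of these, 1 was called higher and 0 lower, against 2.59% and 1.26% of all genes. At the adjusted p alone 3 passed, all higher, against 4.57% of all genes. Ythdc1, the nuclear m6A reader, was the one called, at 26.6 and 22.6 CPM in Ctrl and 70 and 81.7 in KCl (log2 change 1.62 ± 0.12, edgeR adjusted p = 1.36e-04). Mettl3, the catalytic subunit of the methyltransferase, was at 10.7 and 10.9 CPM in Ctrl and 9.92 and 8.05 in KCl, with a log2 change of −0.27 ± 0.17 that did not pass. Rbm15, an adaptor of the methyltransferase, was at 8.69 and 11.3 CPM in Ctrl and 19.4 and 19.8 in KCl, and passed the adjusted p (0.00934) just below 2-fold (0.98). Without Ctrl replicate 2, Rbm15 was called as well, so that 2 of 15 were. The median of the list was −0.09.

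RNAs long known in dendrites showed small values. Of 21 tested, 0 were called in either direction, against 2.59% and 1.26% of all genes called higher and lower. The median log2 change was −0.13. The adjusted p was passed by 3 at less than 2-fold, all higher, against 4.57% of all genes. The summed level of the list was 19796 and 23593 CPM in Ctrl neurites and 22253 and 19312 CPM in KCl neurites, so the groups overlapped. In soma it was 8748 and 9069 CPM in Ctrl and 8319 and 10848 CPM in KCl. Camk2a, the alpha subunit of the kinase CaMKII, was at 5483 and 6774 CPM in Ctrl and 6010.2 and 5057 in KCl neurites, and Map2, a dendritic microtubule protein, at 1236 and 1622 CPM in Ctrl and 1405 and 1313 in KCl. Both had overlapping groups, with log2 changes of −0.15 ± 0.14 and −0.07 ± 0.14 that turned to 0.013 and 0.14 without Ctrl replicate 2.

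Rhob, a small GTPase that acts on actin, was the member of that list with the largest change, 71.4 and 67.7 CPM in Ctrl and 129 and 120.0 in KCl (log2 change 0.84 ± 0.09, edgeR adjusted p = 9.57e-04). Actb, cytoplasmic beta-actin, was at 1801 and 1639 CPM in Ctrl and 2310.3 and 2269 in KCl (0.41 ± 0.10, edgeR adjusted p = 0.0451). Bc1, a short noncoding RNA that represses translation in dendrites, was at 10.7 and 10.5 CPM in Ctrl and 15.6 and 21.2 in KCl (0.79 ± 0.17, edgeR adjusted p = 0.0308), and was called without KCl replicate 1. Dlgap3 had the lowest value, −0.38 ± 0.13.

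Receptor subunits were called about as often as all genes, of which 2.59% were called higher and 1.26% lower. Of 22 subunits of glutamate receptors, 0 were called, and Grin1 (0.58) and Gria2 (0.40) passed edgeR's adjusted p at less than 2-fold on the log2 scale, both higher. Grin2c, an NMDA receptor subunit, had the lowest value, −1.43 ± 0.47 (edgeR adjusted p = 0.117), at low levels. Grm2, a presynaptic metabotropic receptor, was at 49.6 and 57.7 CPM in Ctrl and 42 and 24.4 in KCl and was called lower without KCl replicate 1. Of 14 subunits of GABA receptors, Gabrg1 was called, at 1.48 and 1.95 CPM in Ctrl and 4.19 and 4.31 in KCl (1.32 ± 0.26, edgeR adjusted p = 0.0215), and its adjusted p was 0.101 without KCl replicate 1 and 0.20 without KCl replicate 2.

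Among proteins that carry and translate RNA, 0 were called, where 2.59% of all genes were called higher and 1.26% lower. Of 21 RNA-binding proteins of transport granules, 0 were called and 3 passed the adjusted p at less than 2-fold: Hnrnpa2b1 (0.73), Cpeb2 (0.67) and Cpeb4 (0.54), all higher. Igf2bp2, at 0.717 and 0.185 CPM in Ctrl and 1.58 and 2.53 in KCl, missed edgeR's adjusted p (0.0585). DESeq2 called it, and so did edgeR without Ctrl replicate 1 (log2 change 3.46) or without Ctrl replicate 2 (1.52). Of 66 translation factors, 0 were called, and 6, Eif4a1 (0.49) among them, passed the adjusted p, all higher. Of 81 cytosolic ribosomal genes and 90 nuclear-encoded genes of the respiratory chain, 0 passed the adjusted p in either direction. The log2 changes ran from −0.24 to 0.25 for the ribosomal genes and from −0.48 to 0.28 for the respiratory genes, and 2.91% and 4.57% of all genes passed lower and higher.

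**Figure D3:**
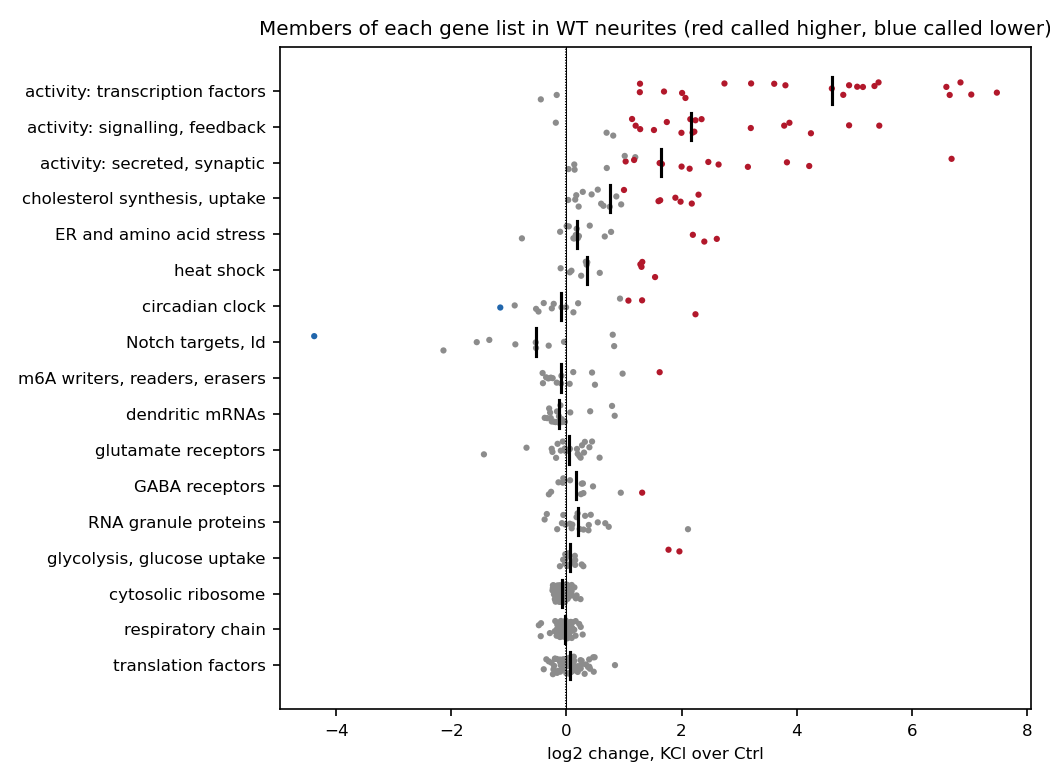
Log2 change (KCl over Ctrl) in WT neurites of every tested member of each list, with the median as a bar. Red marks genes called higher and blue genes called lower; the activity lists reach 7.48 (Fosb), the Notch list reaches −4.38 (Hes5), and the ribosomal and respiratory genes all lie between −0.48 and 0.28.

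Long noncoding RNAs were called about as often as protein-coding genes. Of 2128 long noncoding genes tested, 57 (2.68%) were called higher and 26 (1.22%) lower, against 2.72% and 1.38% of 15346 protein-coding genes. The largest rise among those averaging 100 counts or more was that of 1700016P03Rik, 0.350 and 0.317 CPM in Ctrl and 25.3 and 27 in KCl (6.27 ± 0.20, edgeR adjusted p = 1.17e-06). Gm47423 (3.39), Gm16023 (2.85) and Gm26767 (2.75) followed on the log2 scale. Mirg, a host transcript of a brain miRNA cluster, was the only call among 7 long noncoding RNAs kept mainly in the nucleus, at 11.3 and 10.3 CPM in Ctrl and 29.1 and 34.1 in KCl (1.55 ± 0.14). Malat1, the most abundant of them, was at 2347 and 2358 CPM in Ctrl and 2697 and 2790.3 in KCl (0.22 ± 0.10) and was not called.

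Among falls, Mir124a-1hg, a host transcript of the neuronal miRNA miR-124, was at 21 and 16.3 CPM in Ctrl and 6.83 and 4.86 in KCl (−1.68 ± 0.21, edgeR adjusted p = 0.00231). Gm19938 had a log2 change of −2.02 ± 0.31. 5330413P13Rik (−1.68) and Gm48495 (−1.51) lost their calls without KCl replicate 2, with adjusted p of 0.301 and 0.336. Of 63 miRNA genes, 10 were called higher and 0 lower, and of 24 snoRNA genes 4 and 0, against 2.59% and 1.26% of all genes. Counts on such short genes can come from the longer transcripts around them, since counting was not set to strand, and processed pseudogenes, of which 26 of 2984 were called higher and 1 lower, can share reads with their parent genes.

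The soma libraries of the same inserts show how much of the response was seen on the upper side of the membrane. In soma, 1014 of 24060 genes tested (4.21%) were called higher and 877 (3.65%) lower. Of genes called higher in neurites, 498 (87.1%) were also called higher in soma, where they made up 49.1% of those called higher. Of genes called lower in neurites, 202 (72.4%) were called lower in soma, 23.0% of those called there. In 0 genes were the calls opposite. Of the 74 genes called higher in neurites and not in soma, 70 had a log2 change above 0 in soma, with a median of 0.83, and of the 77 called lower in neurites and not in soma, 73 had one below 0, with a median of −0.86. As the soma fraction can hold neurites of the upper side, the fractions are not pure. The neurite fraction also held RNAs kept mainly in the nucleus. The 7 listed summed to 3822 and 3704 CPM in Ctrl neurites and 6491 and 6459 in Ctrl soma. In KCl they summed to 4195 and 4692 CPM in neurites and 6586 and 7125 in soma. What part soma or nuclear RNA in the neurite fraction had in the shared calls was not tested.

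The difference itself was tested with an interaction term on the 8 WT libraries, 1 term per insert. At an adjusted p of at most 0.05 and 1.5-fold, edgeR called 0 of 23200 genes (0%) as changing more upwards or more downwards in neurites than in soma. The smallest adjusted p was 0.203, for Egr2. The study used cutoffs of an unadjusted p of at most 0.05 and 1.5-fold here, but with another test that kept the less significant of its results per gene. At the same cutoffs in edgeR's test, 465 genes (2%) leaned towards neurites and 314 (1.35%) towards soma. This balance turned under other settings: the numbers were 343 and 447 with RLE scaling, and 219 and 279 in DESeq2. At the adjusted p, DESeq2 with the same terms called 3 genes towards neurites and 12 towards soma.

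Of the 50 activity genes called higher in neurites, 47 were called higher in soma, and 36 had a smaller log2 change in neurites. An unadjusted p of at most 0.05, at any fold, was reached by 21 of the 50, against 966 of all 23200 genes tested. Of these 21, 18 leaned towards soma and 3 towards neurites. Egr2 was at 2.07 and 1.46 CPM in Ctrl soma and 193 and 175 in KCl soma, against 4.64 and 3.30 CPM in Ctrl and 118 and 124 in KCl in neurites, a difference in log2 change of −1.75 ± 0.19 (unadjusted p = 8.74e-06). Fos was at 12.9 and 12.5 CPM in Ctrl soma and 3021 and 2651 in KCl soma, so its log2 change of 7.80 exceeded that in neurites, by −1.17 ± 0.20 as neurites minus soma. Atf3 (−1.55), Trib1 (−1.49) and Gem (−2.11) had differences in the same direction, and all of Egr2, Fos, Atf3, Trib1 and Gem were among the 12 that DESeq2 called. Arc differed by −0.43 ± 0.19 and Bdnf by 0.03 ± 0.19.

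Among activity genes, differences towards neurites were fewer. Ptgs2 (1.09 ± 0.46), Dusp5 (0.78 ± 0.28) and Plk3 (0.64 ± 0.24) were the activity genes with an unadjusted p of at most 0.05 in that direction. Rhob had a log2 change of 0.84 in neurites and 0.07 in soma, where it was at 92.9 and 85.7 CPM in Ctrl and 78.9 and 109 in KCl, and the difference was 0.81 ± 0.22 (unadjusted p = 0.00548, edgeR adjusted p = 0.999). None of these passed at an adjusted p. Hes5 fell by similar amounts, with log2 changes of −4.38 in neurites and −4.14 in soma.

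**Figure D4:**
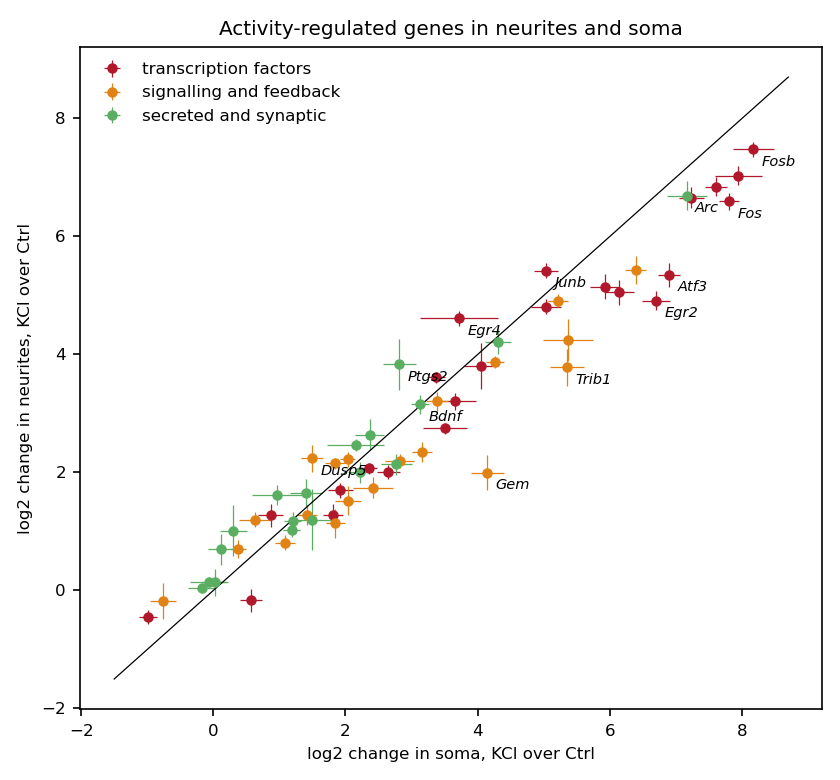
Log2 change (KCl over Ctrl) of each activity gene in WT neurites against that in WT soma, with SE bars and the line of equal change. Most points lie below the line at large changes, with Egr2 (6.70 in soma, 4.91 in neurites) and Gem farthest below and Egr4 and Ptgs2 above it.

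The labelled material was checked against cell type markers. Of all genes, 2.59% were called higher and 1.26% lower. The 10 neuron markers summed to 8947 and 10474 CPM in Ctrl neurites and 10131 and 9576 in KCl neurites, and 0 were called. Nefl (0.78) and Gad1 (0.43) passed the adjusted p as higher and Slc17a7 (−0.46) as lower, all at less than 2-fold, and Nefl was called without Ctrl replicate 2. Microglia markers (5 of 7 tested) summed to 24.7 and 26.6 CPM in Ctrl and 35.2 and 27.0 in KCl. Oligodendrocyte lineage markers (8 of 9) summed to 104 and 110.0 CPM in Ctrl and 78.0 and 70.5 in KCl, with Mbp passing edgeR's adjusted p (−0.75, adjusted p = 0.0279). Of these 8 markers, 5 had a log2 change below 0 and 3 above, from −0.95 to 1.26. Fibroblast and vessel markers (9 of 10) summed to 35.3 and 81.2 CPM in Ctrl and 52.1 and 27.1 in KCl, with a median log2 change of −0.56. Of these 3 lists, 0 genes were called, and what part other cells had in the response was not tested. Of 5 markers of dividing cells, Ccnb1 was called higher at 0.117 and 0.132 CPM in Ctrl and 0.821 and 0.513 in KCl. DESeq2 did not call it, and without Ctrl replicate 1, KCl replicate 1 or KCl replicate 2 its adjusted p was 0.0644, 0.231 or 0.143. The markers P2ry12 and Itgam of microglia, Sox10 of oligodendrocytes and Cldn5 of vessels were below a mean count of 10.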

How the data were processed

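RNA-seq of WT neurites was compared between Ctrl and KCl (2 libraries each). The authors made libraries from 50 ng of total RNA, aligned paired reads with STAR 2.7.7a to mm10 and counted fragments per gene with featureCounts 2.0.1, with reads of several places counted. The deposited values are whole-number counts without normalization, on the GRCm38 annotation of Ensembl 97. Gene names and biotypes came from that build with Ensembl 96 (55480 of 55573 genes matched). Depth was 38093506 to 57046498 counts per neurite library.

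The 4 libraries were fitted in edgeR 4.0.16 (R 4.3.3) with TMM scaling and a two-sided quasi-likelihood F-test, Benjamini-Hochberg over 22059 genes. Mitochondrially encoded genes were left out. The difference from soma used 8 WT libraries with 1 term per insert. The alternatives were DESeq2 1.42.0, RLE scaling, other filters, 8 or 16 libraries, a replicate block, a fold of 1.5 and each library left out. Tables and figures used Python 3.11.15 with pandas 2.3.3 and matplotlib 3.10.9.

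Genes named were, for genes averaging 100 counts or more and with non-overlapping groups, the 12 protein-coding and 4 long noncoding genes with the largest called change each way, the 3 smallest p each way, members of written gene lists (ordinary knowledge of pathways and cell types) and genes the study names for KCl. The members and lists were chosen with earlier results of these data known. Results for some genes are not reported here. The authors' fold changes and p-values were not used, and of their DART-seq tables only which genes have a site was used. In these tables, per the file headers, the authors give editing as a fraction and a score, with log2 changes, p-values and a mean signal.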

Additional observations from a re-analysis of the deposited data

How the results depend on the processing

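Of 112 genes named and called, 52 kept their call under each alternative that tested them (13, or 12 for Fosl1), 59 lost it with all 16 libraries in 1 fit, 20 lost it under another alternative, and 0 changed direction. The KCl response of neurites had 572 genes higher and 279 lower. Without the filter on low counts the numbers were 893 and 511, with 16 libraries 240 and 23, and at 1.5-fold 512 were lower. Leaving out 1 library gave 338 to 974 higher and 60 to 458 lower, with the smallest numbers without KCl replicate 2 and the largest without Ctrl replicate 1. For neurites against soma, edgeR called 0 genes either way and DESeq2 3 and 12. At an unadjusted p the numbers were 465 and 314 (343 and 447 with RLE scaling, 219 and 279 in DESeq2). The fits that left out 1 neurite library also left out the insert terms, so they changed the libraries and the model together. The causes were not tested, except that the fits without the filter and at 1.5-fold test more genes or call smaller changes by construction.

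With the replicate number as a replicate block, 519 genes were higher and 209 lower. Replicate differences of Ctrl and KCl correlated at −0.0421 over genes, so the numbers showed no pairing, and litters, which the study says Ctrl and KCl shared, may not follow them. Among genes named, the block ended the calls of Bag3, Stard4 and Ccnb1 and added Inhba. With the numbers crossed, an alternative added after seeing the data, 647 were higher and 337 lower. The directions of Map2 and Camk2a, which were not called, turned on Ctrl replicate 2: over the libraries left out, the log2 change ran from −0.25 to 0.14 for Map2 and from −0.29 to 0.013 for Camk2a.

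Duplicates allow 1 degree of freedom per group, so values near the threshold are the least firm, and low counts come with wide errors (SE of the log2 change 0.44 for Stil and 0.43 for Ptgs2).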

Other observations

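The genes described here were chosen after their values were seen. Genes named as zinc fingers (Zfp, Zscan, Zkscan, Znf or Zbtb), with Rbak added by hand, were mostly on the lower side. Of 392 such protein-coding genes tested, 61, Rbak among them, were called lower and 9 higher, against 212 and 418 of 15346 protein-coding genes. Their median log2 change was −0.47, against −0.02 for all protein-coding genes, and 255 of the 392 had both KCl libraries below both Ctrl libraries. In soma 77 were called lower and 10 higher, and the median was −0.53. Zfp87 went from 12.5 and 13.6 CPM in Ctrl neurites to 3.85 and 3.43 in KCl neurites, Zfp61 from 15.9 and 15 to 5.58 and 4.68 and Zfp719 from 17.7 and 16.9 to 6.44 and 6.09.

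Some single genes called higher are known from DNA replication, repair or mitosis; they were picked for their rise, and no list of such genes was counted. Kif18a, a mitotic kinesin, was at 0.834 and 0.844 CPM in Ctrl neurites and 10.9 and 11.2 in KCl neurites (log2 change 3.72 ± 0.22), Zgrf1 at 3.44 and 1.85 CPM in Ctrl and 17.3 and 28.7 in KCl (3.09 ± 0.33), and Ncapg2, a condensin subunit, at 3.07 and 2.16 CPM in Ctrl and 14.5 and 14.5 in KCl (2.45 ± 0.21). The checkpoint kinase Chek1 had a log2 change of 2.36 ± 0.32. Orc1 (2.25), Brca1 (1.78) and Bub1b (1.69) lost their calls without KCl replicate 2, with adjusted p of 0.109, 0.0984 and 0.282 in edgeR. The 5 markers of dividing cells summed to 3.69 and 5.04 CPM in Ctrl neurites and 5.49 and 6.49 in KCl neurites. What part dividing cells had in these values was not tested.

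Ddx3y, a Y-linked RNA helicase, was at 21.7 and 22.4 CPM in Ctrl neurites and 105 and 104 in KCl neurites (log2 change 2.25 ± 0.09, edgeR adjusted p = 4.71e-06). The other Y-linked genes tested had smaller log2 changes, 0.84 ± 0.16 for Eif2s3y, 0.66 ± 0.18 for Uty and 0.25 ± 0.20 for Kdm5d. Its X-linked copy Ddx3x was at 48.6 and 44.1 CPM in Ctrl and 88.8 and 96.3 in KCl, just under 2-fold. The copies are similar in sequence and reads mapping to several places were counted, so their values may share reads. Impdh2 (1.98 ± 0.10) and its pseudogene Impdh2-ps (1.93 ± 0.11) had nearly the same log2 change, and may share reads too.

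The authors' DART-seq sites of m6A were set beside the calls by gene symbol. Such sites were deposited for 49.8% of the 418 protein-coding genes called higher, 3.30% of the 212 called lower and 35.6% of the 14716 called in neither direction. Sites needed read coverage, and called-lower genes had lower counts (median mean count 236, against 985 for called-higher genes), so shares were also read within ranges of mean count. Between 300 and 1000, a site was listed for 37.0% of 81 genes called higher, 4.0% of 75 called lower and 21.9% of 3235 called in neither direction, and between 100 and 300 for 12.3% of 57, 2.91% of 103 and 7.0% of 1915. The sites were averaged over WT libraries that include KCl-treated ones, so a gene that rose had more coverage there, and what part coverage had in the shares was not tested further.

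For the difference between neurites and soma, the 3 genes that DESeq2 called towards neurites were Tbr1, Ypel3 and Hnrnpll, named after their values were seen. Their differences in log2 change were 1.16, 1.23 and 1.13 in DESeq2, and in edgeR 1.22 ± 0.20, 1.30 ± 0.25 and 1.20 ± 0.21 (SE), with edgeR adjusted p of 0.939, 0.999 and 0.999.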
